A study of Mus musculus with 2 samples.

Results

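The 9 striated-muscle microRNA (miRNA) genes Mir206, Mir133b, Mir1a-1, Mir133a-2, Mir1a-2, Mir133a-1, Mir208a, Mir208b and Mir499 were examined in mouse adrenal gland. They were chosen by gene name in the GENCODE M21 annotation, and all 9 were found among the 2202 miRNA genes of the count tables. MicroRNA-seq, which sequences RNAs of the size of mature miRNAs, had been run on adrenal glands of female mice of the hybrid strain B6CASTF1/J at 36 days of age. There was 1 group of 2 libraries, with no treatment and no second tissue. The members can thus be compared with each other, by counted reads, and between the libraries. The labels number the libraries as biological replicates from differently numbered females but give them a single donor identifier, so the spread between them may be technical. Sense-strand reads of miRNA genes numbered 5397603 in replicate 1 and 3029977 in replicate 2. Levels are CPM, a gene's sense reads for every 1000000 sense miRNA reads of its library, with 95% Wilson intervals for a single library and mean ± SD over n = 2 libraries. Intervals and detection limits cover counting error only.

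Striated-muscle miRNAs are made in skeletal and cardiac muscle cells, where myogenic transcription factors switch on their genes. The miR-1 and miR-206 family shares a seed, the short 5′ stretch that pairs with target messages, and promotes muscle differentiation, while miR-133 is made from the same primary transcripts and is known for its part in myoblast proliferation. Mir206 is known mainly from skeletal muscle, whereas the miR-1 and miR-133a genes are active in both heart and skeletal muscle. Mir208a, Mir208b and Mir499 lie inside the myosin heavy chain genes Myh6, Myh7 and Myh7b and act in the choice between fast and slow muscle programmes.

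The mature arms below compare the seeds of Mir206, Mir133b, Mir208a, Mir208b and Mir499, with no arm of miR-1a or miR-133a among them. They are from RefSeq (GRCm38.p6), where 6 of the 9 members had a mature entry, and bases 2 to 8, the seed, are in capitals.
miR-206-3p: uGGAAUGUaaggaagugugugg
miR-133b-3p: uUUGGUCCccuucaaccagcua
miR-208a-3p: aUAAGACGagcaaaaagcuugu
miR-208b-3p: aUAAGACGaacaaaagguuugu
miR-499-5p: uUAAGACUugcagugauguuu
The seeds of miR-208a-3p and miR-208b-3p were identical, and the arms matched at 19 of 22 positions. The substitutions of miR-208a-3p against miR-208b-3p, counted from the 5′ end, were A10G, G16A and U18C. The seed of miR-499-5p matched that of miR-208b-3p at 6 of 7 positions, differing by U8G. The seed of miR-206-3p matched that of its transcript partner miR-133b-3p at 1 of 7 positions.

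The hairpins of the 3 members with at least 10 reads in both libraries are shown with their mature arms in capitals, since reads from either arm enter the same gene count.
Mir206: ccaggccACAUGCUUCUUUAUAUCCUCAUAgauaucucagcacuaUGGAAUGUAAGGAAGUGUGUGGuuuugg
Mir208b: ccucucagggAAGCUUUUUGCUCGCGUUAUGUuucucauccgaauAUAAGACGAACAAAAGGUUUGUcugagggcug
Mir499: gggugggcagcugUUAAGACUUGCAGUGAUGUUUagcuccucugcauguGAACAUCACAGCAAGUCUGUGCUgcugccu
The Mir206 hairpin has 73 bases, that of Mir208b 77 and that of Mir499 79. None of these 3 hairpins shared 20 bases with another annotated miRNA locus. Their longest shared stretches were 13 bases for Mir206, 14 for Mir208b and 13 for Mir499.

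Mir206 carried nearly all counted reads of the group. It lies on chromosome 1 (20679010 to 20679082, plus strand, mm10) in an exon of the long noncoding gene Gm28653. Mir206 had 2556 sense reads in replicate 1 and 1497 in replicate 2. Replicate 1 thus gave 474 CPM (456 to 492) and replicate 2 gave 494 CPM (470 to 520), with overlapping intervals. The mean was 484 ± 14.5 CPM (SD, n = 2). Mir206 ranked 112 of 2202 genes in replicate 1 and 96 in replicate 2, so it stood among the moderately abundant miRNAs of the gland. It made up 96.3% (95.5 to 97.0%) of the reads of all 9 members in replicate 1 and 90.8% (89.3 to 92.1%) in replicate 2. The 9 members together held 0.0518% ± 0.00371 of the sense miRNA reads (SD, n = 2), and the 8 members other than Mir206 held 0.00342% ± 0.00226. In a bulk gland, few cells with much of a miRNA and many cells with little of it cannot be told apart.

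The 5 detected genes nearest to Mir206 over the log2 CPM of both libraries were Mir137, Mir341, Mir193a, Mir342 and Mir132. Mir137, known from neurons, was closest at 435 CPM in replicate 1 and 503 CPM in replicate 2, a distance of 0.12 on the log2 scale. Mir341, in the imprinted gene Rian, had 571 and 484 CPM in replicates 1 and 2. Mir132, known as an activity-induced neuronal miRNA, was the farthest of the 5 at 647 CPM in replicate 1 and 474 CPM in replicate 2, a distance of 0.45. This likeness is one of level over 2 libraries of a single tissue and gives no order among these genes.

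Mir133b, the partner of Mir206 in Gm28653, was at the limit of detection. It lies 3686 bases downstream of Mir206 on the same strand (20682769 to 20682887), also in an annotated exon. Mir133b had 1 read in replicate 1 and 0 in replicate 2. These equal 0.185 CPM (0.0327 to 1.05) in replicate 1 and, from the limit of 3 reads that a count of 0 allows, at most 0.990 CPM in replicate 2. The arm miR-133b-3p occurred whole in 1 annotated hairpin, but without its last base it occurred in 3 hairpins, those of Mir133b, Mir133a-1 and Mir133a-2. The other arm, miR-133b-5p, stayed in 1 hairpin even with 6 bases removed from its 3′ end. Reads placed at several loci were left out of every gene's count, so the level of Mir133b is that of reads placed there alone.

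The 4 members of the paired miR-1a and miR-133a loci also had few or no counted reads. Mir1a-1 and Mir133a-2 lie 9254 bases apart on chromosome 2 (180389048 to 180389124 and 180398379 to 180398482, plus strand), in none of the other annotated genes. Both had 0 reads in both libraries, which allows at most 0.556 CPM in replicate 1 and 0.990 CPM in replicate 2. Mir1a-2 and Mir133a-1 lie 2504 bases apart on the minus strand of chromosome 18 (10785481 to 10785552 and 10782909 to 10782976), in introns of the noncoding gene Mir133a-1hg and opposite an intron of Mib1. Mir133a-1 had 0 reads in replicate 1 and 1 read in replicate 2. Mir1a-2 had 11 reads in replicate 1 and 2 in replicate 2, which equal 2.04 CPM (1.14 to 3.65) and 0.660 CPM (0.181 to 2.41), with overlapping intervals.

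The miR-1a and miR-133 hairpins share long stretches of sequence. The longest stretch common to Mir1a-1 and Mir1a-2 was 28 bases, and that common to Mir133a-1 and Mir133a-2 was 31 bases. Mir133b shared 21 bases with Mir133a-2. A read that lies within such a stretch fits several loci, and the multi-mapped reads of all kinds numbered 3984008 in replicate 1 (28.5% of its reads) and 2302439 in replicate 2 (30.6%). How many of them came from miR-1a or miR-133 was not analysed here, so counts at or near 0 do not show that these miRNAs were absent. One arm, miR-1a-1-5p, occurred in no annotated hairpin other than Mir1a-1, whole and with up to 6 bases removed from its 3′ end. Copies outside the annotated hairpins were not searched, so the 0 reads of Mir1a-1 limit that arm only as far as its reads were placed at 1 locus.

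Strand mattered for Mir1a-2 but for none of the other 8 members. Mir1b, a miRNA gene annotated on the opposite strand, overlaps Mir1a-2 and had 16 sense reads in replicate 1 and 5 in replicate 2. When strand was ignored, Mir1a-2 and Mir1b each had 0 reads in both libraries, while the other 8 members had exactly their sense counts. Mir133c, a further gene named for the miR-133 family and lying on chromosome 2 (29475215 to 29475294, minus strand), had 0 reads in both libraries. Its longest stretch shared with another locus was 16 bases, with Mir133b.

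Of the myosin-hosted members, Mir499 and Mir208b were measured at low levels and Mir208a was close to the detection limit. Mir499 lies on chromosome 2 (155622880 to 155622958, plus strand) in an intron of Myh7b. It had 48 reads in replicate 1 and 88 in replicate 2, or 8.89 CPM (6.71 to 11.8) and 29.0 CPM (23.6 to 35.8), with intervals that did not overlap. Mir208b lies on chromosome 14 (54975700 to 54975776, minus strand) in an intron of Myh7, the slow and beta-cardiac myosin gene. It had 36 reads in replicate 1 and 60 in replicate 2, or 6.67 CPM (4.82 to 9.23) and 19.8 CPM (15.4 to 25.5), again without overlap. Both genes were therefore higher in the shallower library, by CPM and by raw reads.

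Mir208a lies 26557 bases from Mir208b (54949060 to 54949142) in an intron of Myh6, the alpha-cardiac myosin gene. It had 2 reads in replicate 1 and 1 in replicate 2, or 0.371 CPM (0.102 to 1.35) and 0.330 CPM (0.0583 to 1.87). Mir208a shared at most 14 bases with another miRNA locus, the same as Mir208b, and each of its mature arms occurred in 1 annotated hairpin, also after removal of 6 bases. The ratio of Mir499 to Mir208b was 1.33 (exact Clopper-Pearson interval 0.848 to 2.11) in replicate 1 and 1.47 (1.04 to 2.07) in replicate 2. The geometric mean of 1.40 was under 2.26-fold, the limit that the pooled spread between libraries sets for a pair of genes, so Mir499 and Mir208b could not be ranked.

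**Figure D1:**
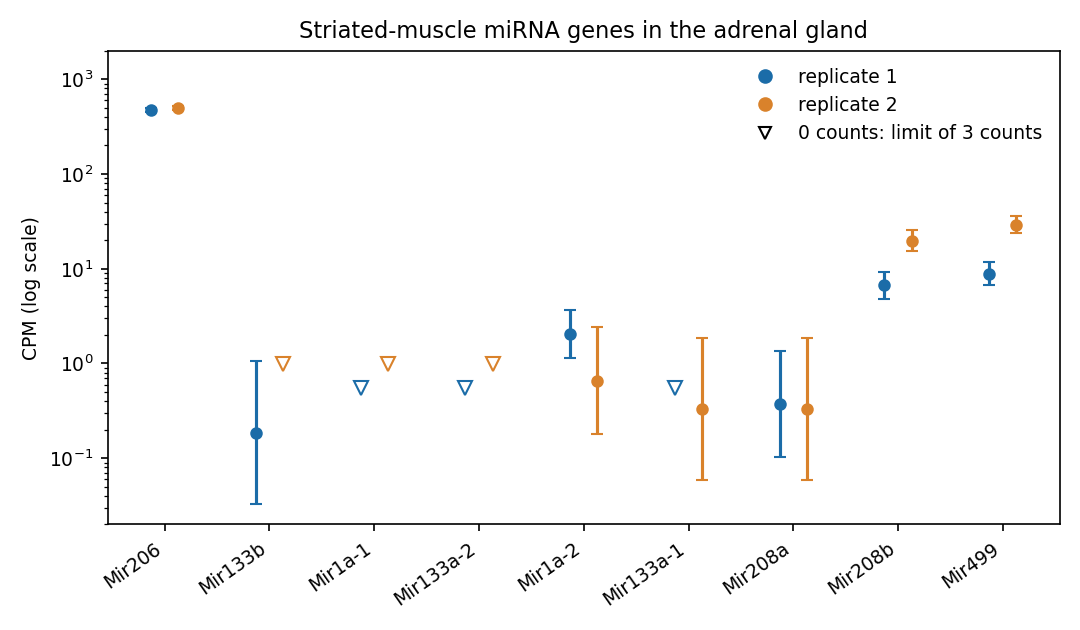
CPM on a log axis for the 9 genes in replicate 1 (blue) and replicate 2 (orange). Points are single libraries, bars are 95% Wilson intervals, and open triangles mark the limit of 3 reads (0.556 and 0.990 CPM) for genes at 0. Mir206 stands at 474 and 494 CPM, Mir499 and Mir208b lie between 6.67 and 29.0 CPM, and the other 6 genes lie at or below 2.04 CPM.

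By counted reads, Mir206 exceeded each of the 8 other members in both libraries. Its reads were 53.2 times (exact Clopper-Pearson interval 40.0 to 72.4) those of Mir499 in replicate 1 and 17.0 times (13.7 to 21.3) in replicate 2. Against Mir208b the ratio was 71.0 (51.1 to 102) in replicate 1 and 24.9 (19.3 to 32.9) in replicate 2. The geometric means, 30.1 for Mir499 and 42.1 for Mir208b, were above the limit of 2.26-fold for a pair of genes. That limit comes from the spread between the libraries alone, and how evenly different miRNAs were captured was not measured. The sizes of these ratios differed between the libraries by 3.13-fold for Mir499 and 2.85-fold for Mir208b, which is within the 5.10-fold that the pooled spread allows for the ratio of a pair.

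Against the multi-copy relatives, the ratio of Mir206 was larger, with most values being bounds. Mir206 was at least 852-fold higher than Mir1a-1 and Mir133a-2 in replicate 1 and at least 499-fold higher in replicate 2, with the 0 reads of each gene set to the floor of 3 reads per library. Against Mir133a-1 it was at least 852-fold higher in replicate 1, and in replicate 2 the ratio was 1497 (268 to 59167). Against Mir133b the ratio was 2556 (458 to 100996) in replicate 1 and the bound was at least 499-fold in replicate 2. Against Mir1a-2 the ratio was 232 (130 to 466) in replicate 1 and 748 (207 to 6186) in replicate 2. These 5 ratios compare reads placed at a single locus, and the part of multi-mapped reads in their size was not tested. Against Mir208a, whose arms, like those of Mir206, occur in no other annotated hairpin, the ratio was 1278 (353 to 10559) in replicate 1 and 1497 (268 to 59167) in replicate 2.

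**Figure D2:**
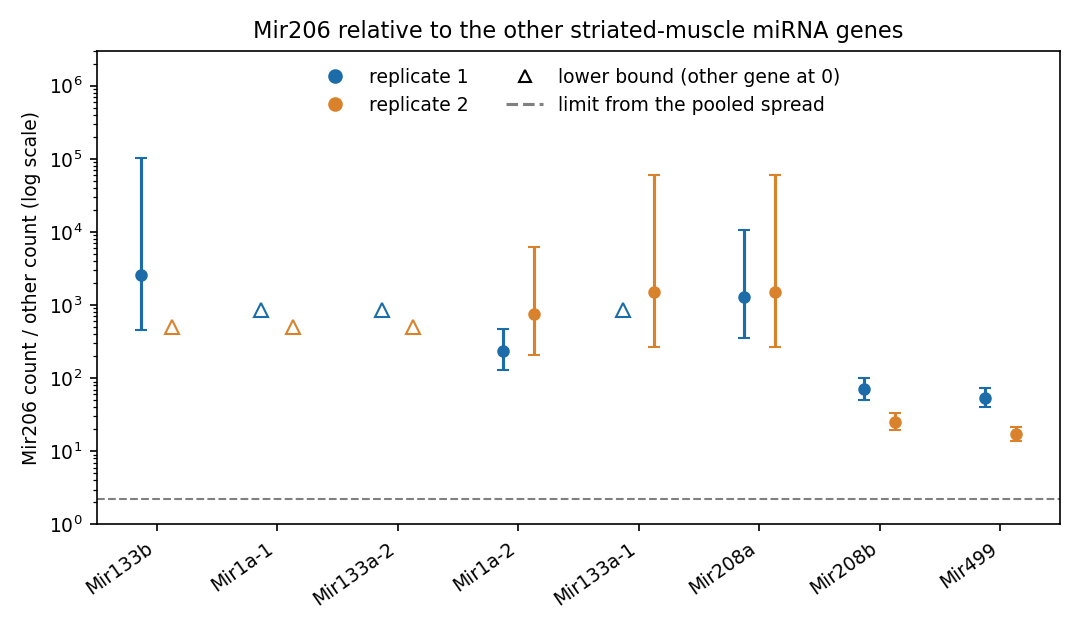
Ratio of the Mir206 read count to that of each other gene, on a log axis, in replicate 1 (blue) and replicate 2 (orange). Points are ratios with exact 95% Clopper-Pearson intervals, open triangles are lower bounds for genes at 0 reads, and the dashed line is the 2.26-fold limit from the pooled spread. The line is the limit for a geometric mean over both libraries, and that for a single library is wider. All values lie above the line, the lowest being 17.0 for Mir499 in replicate 2.

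Detection of the members is set here against the sequence they share with other loci. Of the 4 members that share no stretch of 20 bases with another locus, 3 were detected (at least 10 reads in both libraries), and of the 5 that share one, 0 were detected. Over the whole table, 260 of 1115 genes without such a stretch were detected (23.3%), against 79 of 1087 genes with one (7.27%). Genes at 0 reads in both libraries made up 43.7% of the genes without a shared stretch and 87.0% of those with one. The genes with a stretch include repeated loci such as Gm22065, which shares one with 101 others. These shares are therefore not rates for duplicated miRNA genes alone. Of the 24 muscle differentiation genes taken up below, 13 share such a stretch, and 22 of the 24 were detected. Among the members, Mir1a-1 and Mir133a-2 were at 0 in both libraries. Altogether 3 of 9 members were detected, against 339 of 2202 miRNA genes (15.4%), a difference given as a description with no test.

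**Figure D3:**
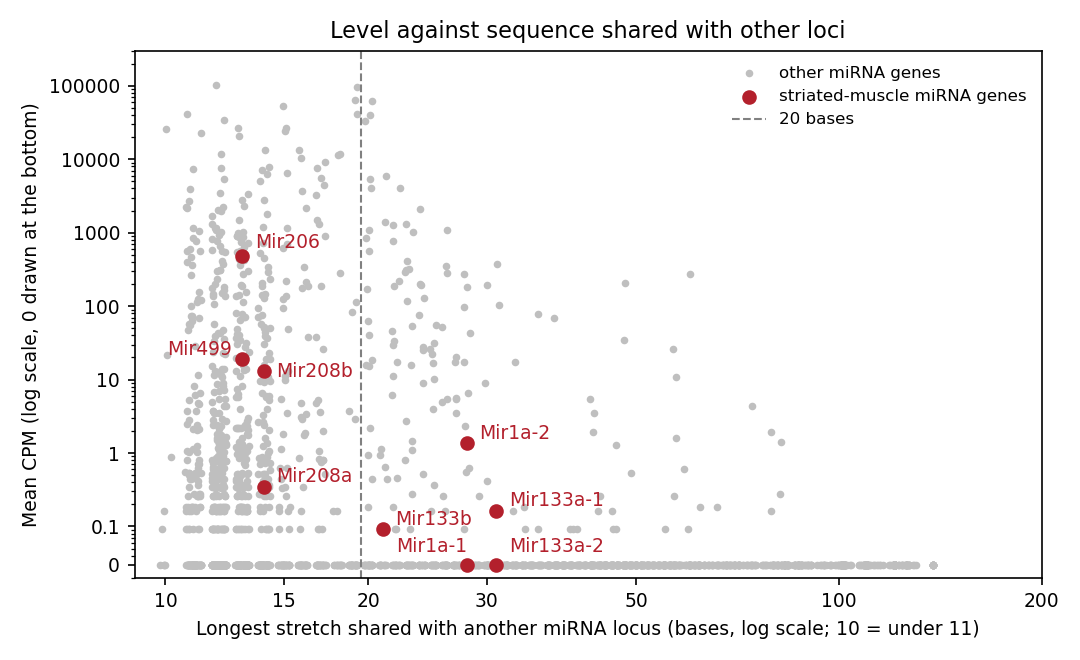
Mean CPM of both libraries (log axis, 0 drawn at the bottom) against the longest stretch of bases that a hairpin shares with another annotated miRNA locus (log axis), for the 9 striated-muscle genes (red) and the other miRNA genes (grey). Mir206, Mir499, Mir208b and Mir208a lie at 13 or 14 bases, and the miR-1a and miR-133 genes lie at 21 to 31 bases with mean levels of 1.35 CPM or less.

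The comparison between the libraries asked how reproducible these levels were. Ratios of replicate 1 over replicate 2 were scaled by TMM, and the reads of each of the 434 genes with at least 10 in all were set against counting error alone (two-sided exact binomial test, p-values adjusted by Benjamini-Hochberg over the 434). Of the 4 members tested, 3 were called, all higher in replicate 2, while 58.5% of the 434 genes were called, 30.2% higher in replicate 1 and 28.3% higher in replicate 2. Because most genes passed, being called says little about these members. Mir1a-2, with 13 reads in all, was not called (exact binomial test, adjusted p = 0.453), its log2 ratio being 1.07.

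Mir206 was among the more reproducible genes in size of ratio. Its log2 ratio was -0.36, or 1.29-fold higher in replicate 2, below the median size of 1.49-fold over the 434 genes (exact binomial test, adjusted p = 8e-14). Scaling to total counts moved every ratio by 0.30 towards replicate 1, which left Mir206 at -0.06 and ended its call (exact binomial test, adjusted p = 0.259). Whether Mir206 is called thus rests on the scaling.

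Mir499 and Mir208b differed more, and in the same direction. Mir499 was 4.01-fold higher in replicate 2 (exact binomial test, adjusted p = 6.55e-15). Mir208b was 3.64-fold higher there, a log2 ratio of -1.86 (exact binomial test, adjusted p = 1.04e-09). Both exceeded the 3.16-fold within which the pooled spread, a coefficient of variation of 41.6%, would place 95% of genes free of counting error. So did 52 of the 434 genes (12.0%). With that spread added as the error (edgeR's exact test, common dispersion), 0% of the 434 genes were called after adjustment, and 24 had an unadjusted p under 0.05. Of the members, Mir499 alone was among those 24 (edgeR, unadjusted p = 0.0334), while Mir208b was not (edgeR, unadjusted p = 0.0526). The edgeR adjusted p was 0.808 for both Mir499 and Mir208b and 0.999 for Mir206.

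**Figure D4:**
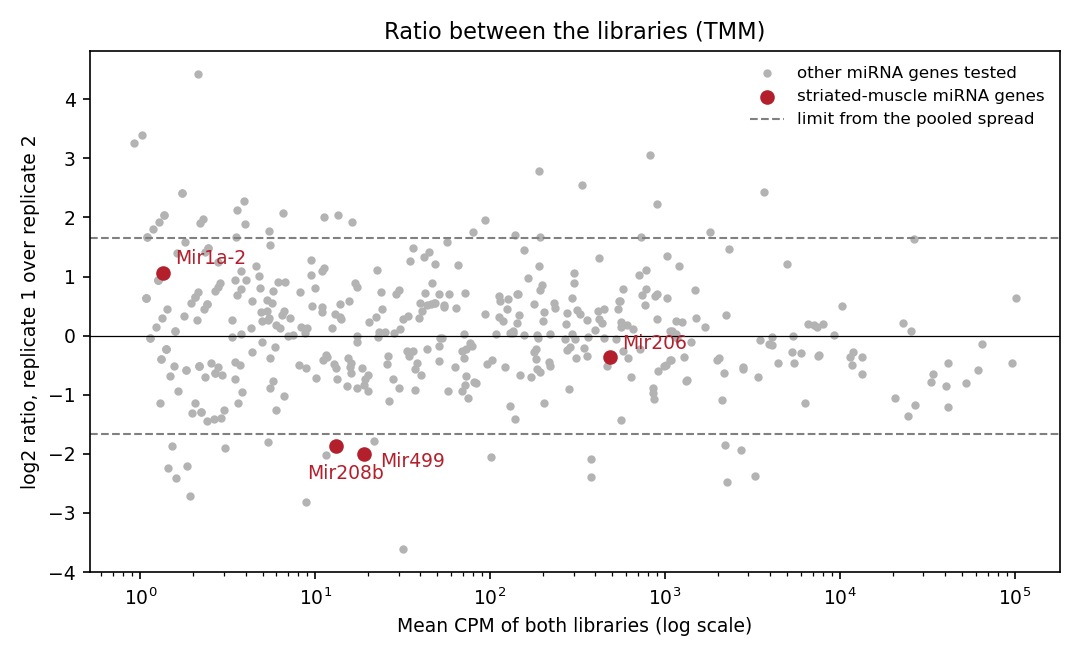
log2 ratio of replicate 1 over replicate 2 (TMM) against the mean CPM (log axis) for the 434 genes tested, with the 4 striated-muscle genes that had enough reads in red. Dashed lines mark the 3.16-fold limit from the pooled spread. Mir499 (4.01-fold) and Mir208b (3.64-fold, both higher in replicate 2) lie beyond the lower line, Mir206 (-0.36) lies near 0, and Mir1a-2 (1.07) lies inside the lines.

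Genes of other tissues that a dissected adrenal could hold also differed between the libraries in the same exact binomial test, in which 30.2% of all genes tested were called toward replicate 1 and 28.3% toward replicate 2. Under the common dispersion 0 genes of these lists were called. The smooth muscle pair Mir143 and Mir145a was called higher in replicate 2 for 2 of 2 genes, at 3.02% of reads in replicate 1 and 5.92% in replicate 2. Mir122, of hepatocytes, went the other way, with 1503 CPM in replicate 1 and 146 CPM in replicate 2. The red-cell genes Mir451a, Mir144 and Mir486 were called higher in replicate 1 for 3 of 3, with 0.121% of reads in replicate 1 and 0.0576% in replicate 2. Of these, Mir486 is also counted among the muscle differentiation genes taken up below. Mir126a, of endothelium, was called higher in replicate 1 too, at 13.3% of reads in replicate 1 and 6.93% in replicate 2. The 4 kidney genes held 0.0168% and 0.00980% in replicates 1 and 2, but did not all go 1 way. Of the 3 tested, 2 were called higher in replicate 1. The other, Mir204, was called higher in replicate 2, with 36.3 CPM in replicate 1 and 40.6 CPM in replicate 2. With total counts, 0 kidney genes were called higher in replicate 2, so the call of Mir204 rests on the scaling. The part of any gene of these lists in the ratios of Mir499 and Mir208b was not tested. Of 3 endocrine genes listed for the labelled tissue, Mir375 had 25584 ± 4721 CPM and Mir7b 2790 ± 312 CPM (SD, n = 2). Mir137, the other, had 469 ± 47.7 CPM. Against counting error, 1 of the 3 was called higher in replicate 1 and 2 in replicate 2.

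Brown fat, which surrounds the gland in young mice, is a further known site of Mir206 and of the miR-1 and miR-133a genes. Of 6 genes listed for brown fat, 5 were detected, beside 15.4% of all miRNA genes. Together the 6 held 0.189% of reads in replicate 1 and 0.134% in replicate 2. Most of that was Mir455, with 7379 of their 10175 reads in replicate 1 and 2833 of 4060 in replicate 2. Mir455, which promotes brown fat differentiation, led with 1367 CPM in replicate 1 and 935 CPM in replicate 2. Mir193b had 297 and 173 CPM in replicates 1 and 2, and Mir196a-2 had 170 and 202 CPM. Mir365-2 and Mir196a-1 were low, with means of 17.4 and 17.3 CPM, and Mir365-1 was not detected. Of the 6 genes, 4 were called higher in replicate 1 and 1 higher in replicate 2 against counting error (30.2% and 28.3% of all genes tested), and 0 with the common dispersion. None of these genes is confined to brown fat, and their part in the level of Mir206 was not tested.

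MiRNAs that act in muscle differentiation without being confined to muscle spanned a wide range of levels. Of 24 such genes, 22 were detected, 9 had a mean CPM above that of Mir206 and 15 had one below it. Together they held 9.71% ± 1.07 of the sense reads (SD, n = 2), most of it from Mir378a and Mir322. Mir378a, which acts in myoblast differentiation and in metabolism, had 61401 ± 8455 CPM and Mir322, linked to cell cycle exit of myoblasts, had 20589 ± 7447 CPM. Mir27b, which targets the muscle progenitor factor Pax3, had 5315 ± 73.8 CPM, and Mir195a had 6372 CPM in replicate 1 and 959 CPM in replicate 2. Mir489, known from quiescent muscle stem cells, had 0 reads in both libraries. Of the 23 genes tested between the libraries, 13 were called higher in replicate 1 and 10 in replicate 2, and their median log2 ratio was 0.26 beside 0.06 for all genes tested. With total counts 13 and 7 were called in those directions, and with the common dispersion 0 were called. Of these 24 genes, 13 share at least 20 bases with another annotated locus, and multi-mapped reads are in none of their counts.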

How the data were processed

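The authors deposited raw read counts per miRNA gene for each library, on mm10 with GENCODE M21 per the notes deposited with them. The sources used here do not name the aligner, the counter or the trimming. Each table has 3 unnamed count columns, read as without strand, sense and antisense because genes, no-feature and ambiguous reads sum to 1 total in each. The sense column, taken as the one that holds the reads of genes such as Mir206 with no miRNA gene opposite, was used. The 4 summary entries were left out of library sizes (unmapped 26.0% and 22.3%, multi-mapped 28.5% and 30.6%, no feature 6.88% and 6.86%, ambiguous 0 in replicates 1 and 2). One count equals 0.185 CPM in replicate 1 and 0.330 CPM in replicate 2.

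CPM, intervals and binomial tests used Python 3.11.15, pandas 2.3.3, numpy 2.4.6, scipy 1.17.1 and statsmodels 0.14.6. TMM, the common dispersion (intercept only) and the exact test used edgeR 4.0.16 in R 4.3.3. Size factors used DESeq2 1.42.0, and matplotlib 3.10.9 drew the figures. Ratios had a prior of 0.5 counts, genes needed 10 counts over both libraries, and the threshold was 0.05. With a single group, no quasi-likelihood fit between conditions was possible. Shared stretches were sought on both strands between M21 hairpins at separate loci; no genome was searched. The library test was tested on simulated data. Members and lists were chosen with earlier results of these data known. Named genes were the members, miR-1 and miR-133 relatives, the 5 genes nearest Mir206 and up to 4 of the most abundant detected genes of each list; others were named after their values were seen.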

Additional observations from a re-analysis of the deposited data

Results flagged for a closer look

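Reads in the antisense column of Mir1a-2, which enters no comparison of the report, stood above the limit of 3 reads that a count of 0 allows. There were 16 in replicate 1 and 5 in replicate 2. They equal the sense reads of Mir1b, the miRNA gene annotated on the opposite strand of the same place, in both libraries. The other 8 members had 0 antisense reads in each library.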

How the results depend on the processing

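The level of Mir206 was 603 CPM with counts without strand, 539 CPM without the most abundant gene in the total, 488 CPM with TMM library sizes and 474 to 494 CPM when either library was left out. Its own reads were the same without strand (2556 and 1497), so the 603 CPM reflects a smaller library total. The summed share of the members was 0.0643% with counts without strand, 0.0576% without the most abundant gene and 0.0492% to 0.0544% when either library was left out. Members detected numbered 5 with at least 1 count in both libraries in place of 3, and 3 to 4 when either library was left out. Of all genes tested, 254 were called, 131 of them higher in replicate 1. With total counts 272 were called, 189 of them higher in replicate 1 and 83 higher in replicate 2, and with edgeR's exact test and the common dispersion 0 were called. The log2 ratio of Mir206 was -0.06 once scaled by total counts (adjusted p = 0.259 in the exact binomial test) and stayed at -0.36 with the common dispersion (edgeR, adjusted p = 0.999). It ranged from -0.06 to -0.44 over the alternatives run, its adjusted p from 2.33e-19 to 0.999, and no member's ratio changed sign. The calls of Mir499 and Mir208b ended with the common dispersion alone. The ratio of Mir206 to Mir499 was 17.0 to 53.2 and that to Mir208b 24.9 to 71.0 when either library was left out. Leaving out a library gave no ratio between libraries, Mir208b and Mir1a-2 had too few reads for a minimum of 100, and Mir1a-2 could not be tested without strand or after thinning replicate 1 to the depth of replicate 2. No paired analysis was possible because there is 1 group. At this depth Mir208a and the miR-1 and miR-133 genes had at most 11 reads in a library, and the part of multi-mapped reads in that was not tested.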
